A study of Rattus norvegicus with 6 samples.

Results

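Hao2 and 7 other names of peroxisomal oxidases and catalase were examined in kidneys of newborn rats with inherited cystic disease. The members are Hao2, Dao, Ddo, Cat, Pipox, Acox2, Acox3 and Uox, chosen by the gene name printed for each probe. They were chosen in part from measured values, namely the low Hao2 signal in the Cy5 RNA of the arrays labelled +/+ and its position above the reference in both mutants. Those contrasts are therefore given as descriptions with no test. A later comparison of the mutant ratio between ages uses some of the same values, so its p-values for Hao2 are not read as support. By this rule 6 of the 8 names had a probe, of 15505 genes that could be named on the array, each with 1 probe and 1 spot. Dao is on the array under its older name Dao1, so its probe falls outside the rule and is shown beside the members. Ddo matched no probe by name or by accession.

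Left kidneys of Han:SPRD rats were taken at 3 and 7 days, and total RNA was pooled by genotype and amplified. This strain carries a missense mutation in Anks6, present in both copies in Cy/Cy, in 1 copy in Cy/+ and in none in +/+. Cy5 held the Cy/Cy, Cy/+ or +/+ pool and Cy3 a +/+ pool of the same age, called the reference, on 1 array of each genotype and age, with no dye swap. How many animals entered a pool is not given, so the 2 ages are the only repeats of a genotype. The p-values reflect the spread between hybridised pools and channels, not between animals. Each slide held 1 age and each genotype 1 fixed position, so age and slide, and genotype and position, cannot be told apart. RNA per kidney is averaged over all its cells, so fewer proximal tubule cells and less RNA per cell cannot be told apart.

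The arrays labelled +/+ go against their label. The share of probes at least 2-fold apart between the dyes was 0.0566% to 0.102% on Cy/Cy arrays and 0.421% to 0.884% on Cy/+ arrays, against 12.7% to 15.5% on the arrays labelled +/+. The 14 proximal tubule markers, all measured, summed to 307200 to 333600 units of normalized signal in Cy/Cy and 309900 to 341300 in Cy/+, against 46090 to 50550 in Cy5 of the arrays labelled +/+ and 272000 to 291700 in the reference. The 5 liver markers kept of 10 summed to 5469 to 8761 units in Cy/Cy and 6852 to 8331 in Cy/+, against 384900 to 416300 in Cy5 of the arrays labelled +/+ and 4802 to 6584 in the reference. No marker of either list with a level was at 0. The Cy5 RNA of these 2 arrays is named by its label only and enters no test beyond the alternative with all 6 arrays. Their Cy3 signals are part of the reference means in the test of age. On the 6 arrays 65.0% to 74.8% of spots were well above background, and precision is limited by how few arrays there are.

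Peroxisomes hold oxidases, many of them flavin enzymes, that pass electrons from their substrates straight to oxygen and so form hydrogen peroxide, which catalase breaks down. Hao2 oxidises long-chain L-2-hydroxy acids, Dao neutral D-amino acids, Ddo D-aspartate, and Pipox pipecolic acid and sarcosine. Acox2 and Acox3 start the beta-oxidation of branched-chain acyl-CoAs, and Uox oxidises urate and is abundant in rat liver. In kidney, peroxisomes are most abundant in the proximal tubule.

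The 60-base probes that carry the contrast between kidney and the other RNA are shown first, 5′ to 3′ as printed for the array, with no base singled out. Hao2's probe lies at chr2:193495810-193495869 on the minus strand of build rn3, Dao's at chr12:43494448-43494507 on the minus strand, and Uox's at chr2:244810683-244810742 on the plus strand. No rn3 gene model was used here, so their position within exons is not stated.
Hao2 probe: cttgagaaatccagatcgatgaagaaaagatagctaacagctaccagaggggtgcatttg
Dao probe: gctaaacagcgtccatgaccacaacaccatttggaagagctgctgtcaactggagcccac
Uox probe: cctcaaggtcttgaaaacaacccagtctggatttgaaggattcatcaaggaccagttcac

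The probes of Pipox (chr10:63934972-63935031, minus strand) and Acox2 (chr15:18673090-18673149, plus strand) also align as 1 block in rn3. Those of Cat (chr3:88579491-88581435, plus strand) and Acox3 (chr14:80775683-80776780, minus strand) span 1945 and 1098 bases. A 60-base probe with such a span crosses a gap in the genome.

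The windows from 250 bases before to 50 after the start of Hao2 and Uox are shown because these oxidases stood at opposite ends of the contrast. They come from RefSeq on GRCr8, at chr2:188913084-188913383 on the minus strand for Hao2 and chr2:238146880-238147179 on the plus strand for Uox. Capitals mark the motifs GTTAAC, which reads the same on both strands, and AGGTCA or its complement TGACCT, the core read by many nuclear receptors including partners of RXR. Both motifs were chosen with these sequences in view.
Hao2 promoter: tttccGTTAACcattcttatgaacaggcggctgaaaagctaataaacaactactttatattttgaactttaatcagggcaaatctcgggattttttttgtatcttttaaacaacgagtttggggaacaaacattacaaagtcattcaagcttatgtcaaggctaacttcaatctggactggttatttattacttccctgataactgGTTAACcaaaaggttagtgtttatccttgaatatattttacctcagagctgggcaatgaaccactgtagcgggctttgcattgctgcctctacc
Uox promoter: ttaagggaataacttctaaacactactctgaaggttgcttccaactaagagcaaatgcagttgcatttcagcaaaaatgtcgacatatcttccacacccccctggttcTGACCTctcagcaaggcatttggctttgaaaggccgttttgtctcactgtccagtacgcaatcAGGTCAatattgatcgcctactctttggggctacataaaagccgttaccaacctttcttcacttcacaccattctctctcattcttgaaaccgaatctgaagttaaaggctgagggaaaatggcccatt

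GTTAAC occurred at 2 places in the Hao2 window, starting 245 and 44 bases before the start, and in none of the other 7 windows. Of 33469 rat promoter windows of this length 2.78% held it. AGGTCA on either strand occurred at 2 places in Uox and at 1 place in each of Cat, Ddo and Dao, and 16.2% of all windows held it. These matches describe letters only.

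Hao2 gave a strong signal in every kidney RNA and its highest signals in the 7-day mutants. At 7 days its normalized log2 signal was 15.24 in Cy/Cy and 15.40 in Cy/+, against 14.24, 14.35 and 14.68 in the 3 hybridisations of the reference. At 3 days it was 14.62 in Cy/Cy and 14.86 in Cy/+, against 14.20, 14.35 and 14.64 in the reference. The 7-day mutant pools lay above every reference hybridisation, whereas the 3-day Cy/Cy pool lay within their range. The highest reference value at each age came from the array labelled +/+. Ordered from high to low, the pools ran 7-day Cy/+, 7-day Cy/Cy, 3-day Cy/+, 3-day Cy/Cy, 7-day reference, 3-day reference, and far below them the arrays labelled +/+ at 8.98 at 7 days and 8.32 at 3 days. The reference pools, at 14.42 and 14.39, differed by less than the SD between hybridisations (0.23 and 0.22, n = 3 each), and the mutant pools were hybridised once each, so their own spread is unknown.

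**Figure D1:**
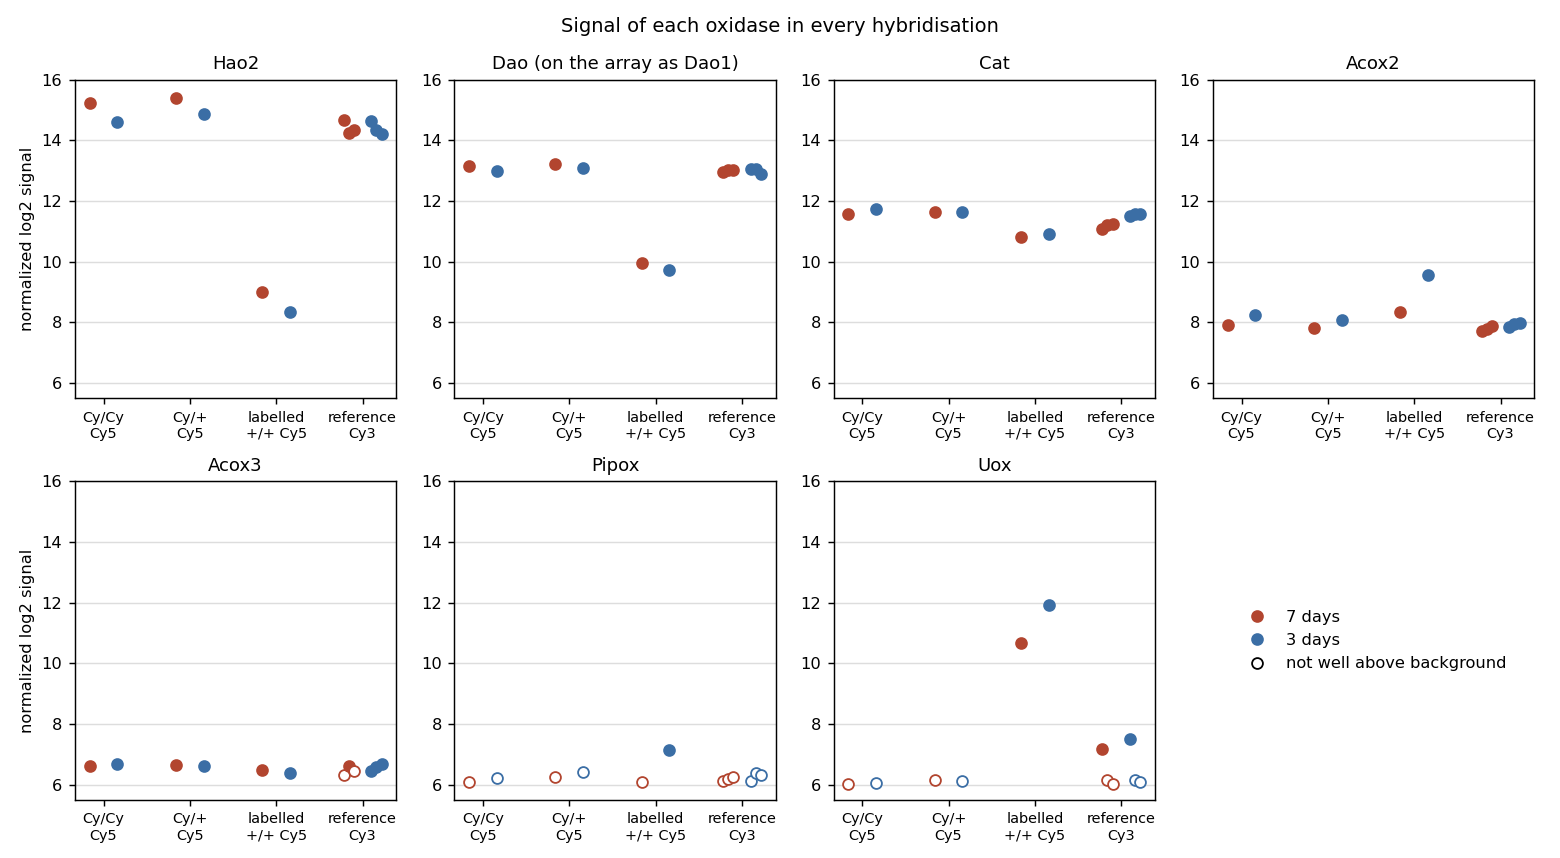
Normalized log2 signal (vertical axis) of each oxidase in Cy/Cy, Cy/+, the arrays labelled +/+ and the reference, 1 point per hybridisation, red at 7 days and blue at 3 days, open where not well above background. Hao2 lies at 14.62 to 15.40 in the mutants and at 8.32 to 8.98 on the arrays labelled +/+, where Uox reaches 10.68 to 11.94.

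Each mutant array had more Hao2 signal than its own reference. The log2 ratio at 7 days was 0.88 in Cy/Cy and 1.16 in Cy/+, and at 3 days it was 0.42 in Cy/Cy and 0.52 in Cy/+. Over the ages this averaged 0.65 ± 0.33 in Cy/Cy, a 1.57-fold level, and 0.84 ± 0.46 in Cy/+, a 1.79-fold level (SD, n = 2 each). With median centring in place of loess these log2 means were 1.28 in Cy/Cy and 1.62 in Cy/+, or 1.08 and 1.38 relative to the median of all probes. Among the probes kept, Hao2 held rank 45 in Cy/Cy and rank 168 in Cy/+ by mean ratio. Cy5 was always the mutant dye, so a dye effect on this probe and genotype cannot be told apart.

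Cat, the catalase that removes hydrogen peroxide, was above its reference by smaller steps. Its log2 ratio was 0.32 in Cy/Cy and 0.45 in Cy/+ at 7 days, and 0.17 in Cy/Cy and 0.07 in Cy/+ at 3 days. Dao stood at 0.13 in Cy/Cy and 0.22 in Cy/+ at 7 days, and at 0.10 in Cy/Cy and 0.02 in Cy/+ at 3 days. Cat's ratios were higher at 7 than at 3 days in each genotype, and those of Dao, in the same order, were smaller.

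Acox2 had its higher ratios at 3 days, the reverse of Hao2. Its log2 ratio was 0.04 in Cy/Cy and 0.02 in Cy/+ at 7 days, and 0.25 in Cy/Cy and 0.14 in Cy/+ at 3 days. Acox3 lay between 0.01 and 0.17 on the 4 arrays, with raw Cy5 signals of 80.9 to 98.7 over backgrounds of 41.5 to 46, close to the detection limit. Hao2, Dao, Cat, Acox2 and Acox3 were above the reference on all 4 mutant arrays, and 21.4% of all probes kept were so. Since this contrast helped to choose the members, nothing is read from that count. With median centring in place of loess, and relative to the median of all probes, Acox3 turned below the reference (log2 -0.36 in Cy/Cy and -0.39 in Cy/+) and Acox2 did so in Cy/+ (-0.01).

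**Figure D2:**
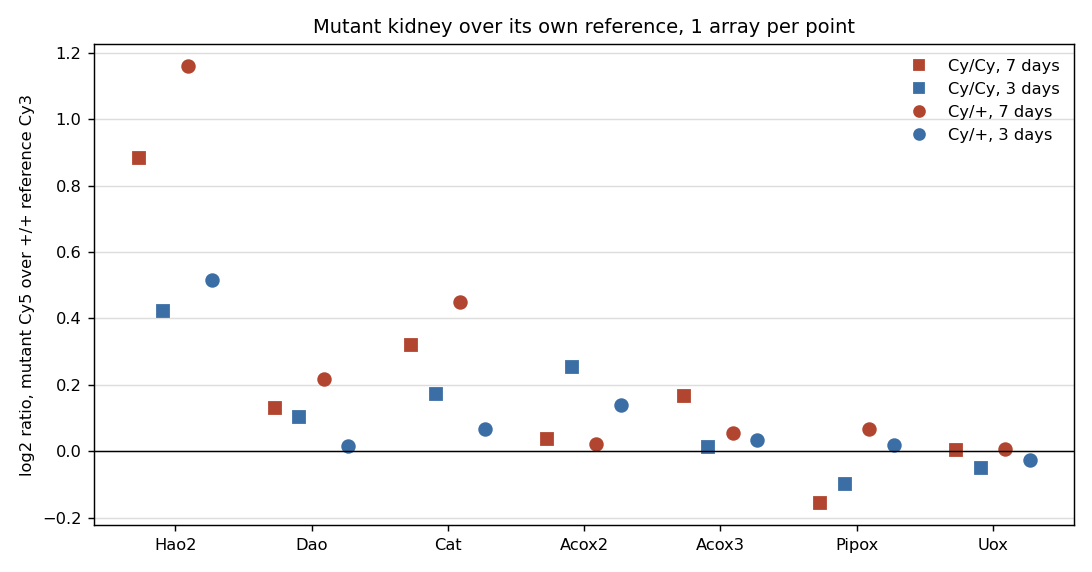
Log2 ratio of mutant Cy5 over +/+ reference Cy3 (vertical axis) for each oxidase, 1 array per point, squares for Cy/Cy and circles for Cy/+, red at 7 days and blue at 3 days. Hao2 spans 0.42 to 1.16, and the other oxidases lie at or below 0.45.

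Pipox and Uox were not well above background in either channel of any mutant array and did not pass the filter. Their mutant ratios, from -0.16 to 0.07, rest on signals at background and give no level. With them, 4 of the 6 members with a probe passed, and Dao passed beside them.

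The oxidases divided widely in the Cy5 RNA of the arrays labelled +/+. Hao2 had a log2 ratio to the reference of -5.70 at 7 days and -6.32 at 3 days, the lowest of 28287 probes on both arrays. Its raw Cy5 signal was 52700 in Cy/Cy and 62100 in Cy/+ at 7 days, against 454 on the array labelled +/+. At 3 days it was 42300 in Cy/Cy and 54000 in Cy/+, against 623 on the array labelled +/+. Dao followed with -3.02 at 7 days and -3.32 at 3 days. Hao2 and Dao were thus at least 2-fold below on both arrays, as were 3.08% of all probes kept. Cat lay nearer the reference, at -0.25 at 7 days and -0.60 at 3 days.

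Acox2 lay above the reference there, with 0.63 at 7 days and 1.71 at 3 days. None of the probes kept for the members was at least 2-fold above on both arrays, where 7.24% of all probes kept were. The filter asked for signal on mutant arrays, so Uox, which was above by more than this on both, was not counted. Nothing is read from that count. Uox had log2 levels of 10.68 at 7 days and 11.94 at 3 days in this RNA. In the mutants, where it was not well above background, Uox was at least 24.1-fold lower at 7 days and at least 57.9-fold lower at 3 days. Each bound sets its Cy5 signal on the array labelled +/+ of that age against, per mutant array, the higher of the lowest signal well above background and its own signal. Against the Cy3 channel of the same array, which also held Uox signal, Cy5 was 11.3-fold higher at 7 days and 21.6-fold higher at 3 days. Pipox was well above background only in Cy5 of the 3-day array labelled +/+, with a raw signal of 208, against 59.6 at 7 days. Hao1, the related oxidase of glycolate that is typical of liver, had raw Cy5 signals of 56.6 to 64.7 on the mutant arrays, none well above background, against 200 at 7 days and 456 at 3 days on the arrays labelled +/+.

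Uox also appeared in the reference channel of those arrays alone. Its raw Cy3 signal was 53.1 to 63.0 on the mutant arrays, against 85.4 at 7 days and 168 at 3 days on the arrays labelled +/+, both well above background. Other probes had such a signal too. Of 1766 probes above background in Cy5 of both arrays labelled +/+ and in neither channel of any mutant array, 14.0% at 7 days and 21.9% at 3 days were above background in Cy3. Among the 106 with a mean log2 Cy5 signal of at least 11, 82.1% and 87.7% were. The cause was not tested.

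Age was tested because it did not choose the members. The 7-day pools of Cy/Cy, Cy/+ and the reference were set against their 3-day pools with limma, genotype being a term, and p-values were adjusted over 28287 probes by Benjamini-Hochberg. Hao2 differed by 0.39 ± 0.12 on the log2 scale (SE), a 1.31-fold level at 7 days, with a 95% interval of 0.10 to 0.69 and an adjusted p of 0.0914, which missed the threshold of 0.05. Acox2 differed by -0.24 ± 0.07 (adjusted p = 0.0885, limma). Cat differed by -0.17 ± 0.09 (adjusted p = 0.250), Dao by 0.10 ± 0.07 (adjusted p = 0.411) and Acox3 by -0.04 ± 0.07 (adjusted p = 0.757), all from the same fit. Thus 0 of 5 were called and 2, Hao2 and Acox2, had an unadjusted p under 0.05, as did 31.1% of all probes. In the background 5.55% of probes were called higher and 4.63% lower at 7 days. That background of 2879 calls depends on the pools, being 73 without the reference, 135 without Cy/Cy and 4669 without Cy/+. The reference means include Cy3 of the arrays labelled +/+. With the reference from mutant arrays only, the calls numbered 3365 and Hao2 differed by 0.39 (adjusted p = 0.0861, limma). Without normalization between arrays Acox2 and Cat passed the threshold as lower at 7 days (adjusted p = 0.0237 and 0.0196, limma), while the median of all probes fell by 0.098.

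By RNA, the Hao2 difference between ages was seen in Cy5. At 7 days minus 3 days Hao2 differed by 0.61 in Cy/Cy, 0.54 in Cy/+ and 0.66 on the arrays labelled +/+, and by 0.03 in the reference. The Cy5 RNAs, whatever their source, were thus alike in this difference, and the dye and the RNA cannot be told apart in it. Dao showed the same order at a smaller size, with 0.15 in Cy/Cy, 0.15 in Cy/+, 0.22 on the arrays labelled +/+ and -0.01 in the reference. Cat differed by -0.17 in Cy/Cy, 0.01 in Cy/+ and -0.09 on the arrays labelled +/+, and by -0.37 in the reference. Acox2 differed by -0.32 in Cy/Cy, -0.27 in Cy/+ and -1.24 on the arrays labelled +/+, and by -0.14 in the reference.

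**Figure D3:**
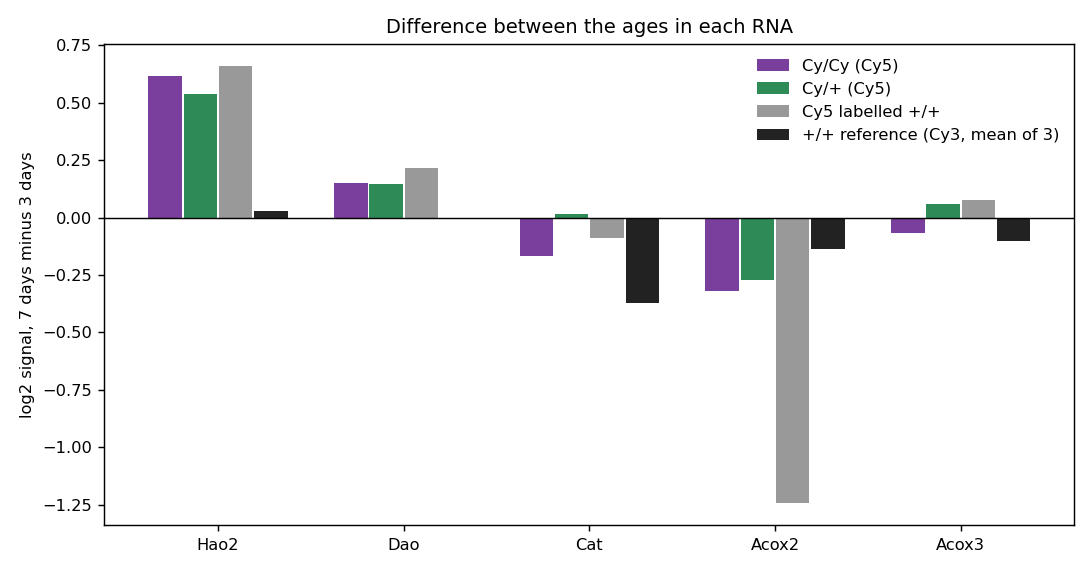
Difference in normalized log2 signal between 7 and 3 days (vertical axis) of the 5 oxidases that passed the filter, 1 bar per RNA, the reference bar being the difference of means over 3 hybridisations. Hao2 bars reach 0.54 to 0.66 in every Cy5 RNA and 0.03 in the reference.

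The mutant ratio was then compared between ages on the 4 mutant arrays, a test added after the data were seen. The same ratios helped to choose Hao2, so its p-values here are descriptive and nothing is concluded from them. Hao2's ratio differed by 0.55 ± 0.11 (SE), with a 95% interval of 0.29 to 0.81, and ranked 202 by p (unadjusted p = 0.00131, limma), but its adjusted p of 0.184 missed the threshold. Cat's ratio differed by 0.26 ± 0.11 (adjusted p = 0.495, limma). Acox2's ratio differed by -0.16 ± 0.11 (adjusted p = 0.674, limma), the opposite sign. Of the 5 oxidases 0 were called, and 0.113% of all probes were. Of the 5, 1 had an unadjusted p under 0.05, as did 10.1% of all probes. With median centring the Hao2 difference was 0.69 and passed (adjusted p = 0.0120, limma). This fit has 1 residual degree of freedom before moderation, and its adjusted p can be too small.

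Between Cy/Cy and Cy/+ kidneys no difference in these oxidases passed the threshold. Hao2 differed by a log2 value of -0.19 ± 0.11 (SE), with a 95% interval of -0.44 to 0.07 (adjusted p = 0.651, limma). The interval allows a Cy/Cy level below that of Cy/+, down to a log2 difference of -0.44. The sign turned without the 7-day Cy/+ array (0.14) and without the 3-day Cy/Cy array (0.05). Acox2 differed by 0.07, Acox3 by 0.05, Dao by -0.001 and Cat by -0.01. Of the 5 oxidases 0 were called and 0 had an unadjusted p under 0.05. Of all probes 0.0177%, 5 in number, were called and 9.61% had an unadjusted p under 0.05. On data simulated with each probe's raw residual SD this fit called 0% of log2 changes of 1 or 2. With the other spreads assumed it called 99.0% to 100%. What the fit can detect thus depends on the spread assumed, and a lack of calls here does not exclude a difference.

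Other peroxisome genes gave the setting of these values. Of 82 listed, 75 were on the array and 74 were tested. Between ages 4 were called higher at 7 days and 3 lower, and 26 had an unadjusted p under 0.05. Over all probes the shares were 5.55% higher, 4.63% lower and 31.1% under the unadjusted threshold, so the list lay close to the background. Amacr, which racemises branched acyl-CoAs before their oxidation, was higher by 0.43 ± 0.08 (SE, adjusted p = 0.0321, limma). Rxra, the nuclear receptor that pairs with PPARs, was higher by 0.40, Prdx1, a peroxiredoxin, by 0.38 and Gnpat, which starts ether lipid synthesis, by 0.35. Xdh, the xanthine oxidoreductase that makes the urate Uox consumes, was lower with -0.73 ± 0.09 (SE, adjusted p = 0.0160, limma). Acsl1, a long-chain acyl-CoA synthetase, was lower with -0.49 and the glutathione peroxidase Gpx1 with -0.33. All 7 calls rest on the pools used: 0 of the 74 were called without Cy/Cy (adjusted p of these 7 from 0.0563 to 0.138, limma) and 0 without the reference (0.0907 to 0.311), while 15, these 7 included, were called without Cy/+. The 7 kept their direction in each of these fits. The median over the 74 was -0.04, against -0.01 over 11676 named genes. In Cy/Cy against Cy/+ 0 of the 74 were called by limma and 5 had an unadjusted p under 0.05, against 9.61% of all probes.

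**Figure D4:**
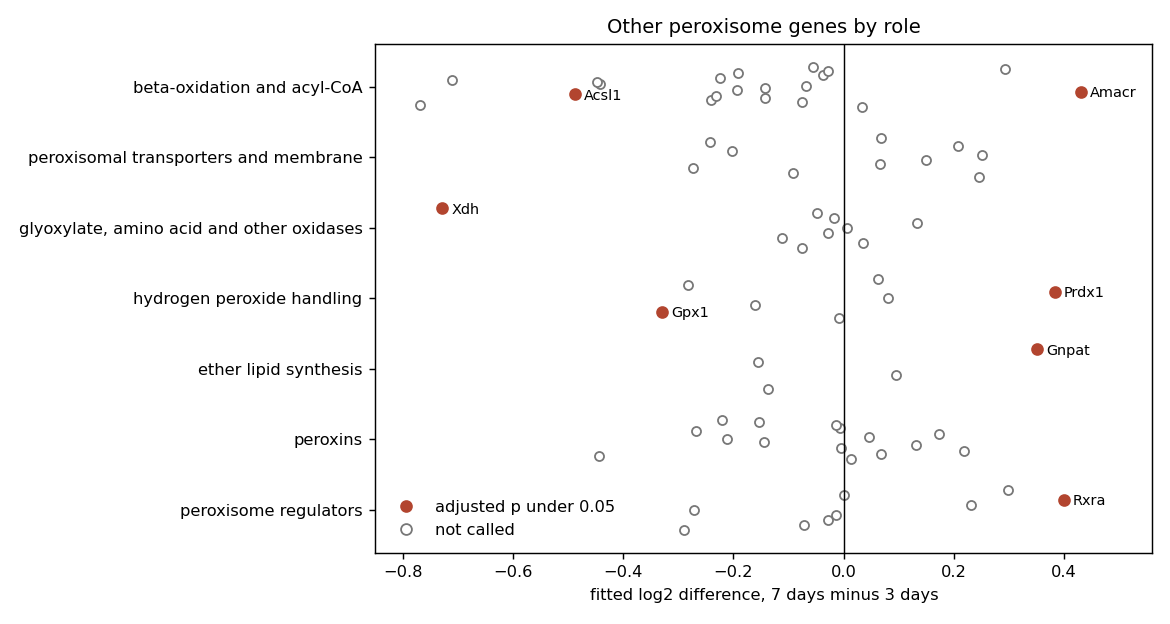
Fitted log2 difference between 7 and 3 days (horizontal axis) of the other peroxisome genes tested, 1 point per gene, grouped by role, filled and named where the adjusted p was under 0.05 with all 6 pools. The 7 called genes run from -0.73 for Xdh to 0.43 for Amacr.

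The 20 listed beta-oxidation genes tested, which do not include Acox2 and Acox3, were compared by mutant ratio between ages. All 20 had a higher ratio at 7 days than at 3 days, with a median of 0.23, against 0.003 over 11676 named genes. By limma 0 were called and 9 had an unadjusted p under 0.05, against 10.1% of all probes. In the fit of age over the pools the same 20 had a median of -0.17 and 3 lay above 0, where Hao2 had 0.39. Over all 74 genes 60 had a higher ratio at 7 days and 18 an unadjusted p under 0.05. These genes share the same 4 arrays and are not independent replicates.

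Proximal tubule markers were set beside Hao2. All 14 were measured, and their median mutant ratio was 0.19 in Cy/Cy and 0.35 in Cy/+ at 7 days. At 3 days it was 0.06 in Cy/Cy and -0.17 in Cy/+. Single markers spread widely around these medians, from -1.19 to 0.97 in Cy/+ at 3 days. In 12 of 14 the ratio was higher at 7 days, with a median difference of 0.33, of which limma called 0 and 9 had an unadjusted p under 0.05, against 10.1% of all probes. On the arrays labelled +/+ their median ratio was -2.58 at 7 days and -3.03 at 3 days. Between ages 2 of the 14 were called higher and 2 lower at 7 days, against 5.55% and 4.63% of all probes. In Cy/Cy against Cy/+ limma called 0 of the 14, and 6 had a difference above 0. There 8 had an unadjusted p under 0.05, against 9.61% of all probes. The markers share the same arrays and are not independent replicates. Their part in the Hao2 values was not tested.

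The 10 genes nearest to Hao2 over 8 pools were found by the root mean square distance of centred log2 signals, among 10732 genes. They were Cltrn, a partner of amino acid transporters (distance 0.35), Slco1a3 (0.45), Slc22a24 (0.46) and Slc22a25 (0.61), which belong to families that carry organic anions, the amino acid transporter Slc7a13 (0.63), the potassium channel gene Kcnj16 (0.71), the endocytic receptor gene Lrp2 (0.84), the acyl-CoA synthetase gene Acsm2 (0.94), Kap (0.97) and the glucose transporter gene Slc5a2 (0.99). The low signal on the arrays labelled +/+ dominates this measure, with log2 ratios of -3.24 to -4.98 for these genes at 7 days and -3.17 to -5.24 at 3 days. Cltrn had mutant ratios of 0.59 in Cy/Cy and 1.03 in Cy/+ at 7 days. At 3 days they were 0.47 in Cy/Cy and 0.51 in Cy/+, the same order as Hao2. The mutant and reference pools entered the distance that picked Cltrn, so nothing is read from this order. Slc5a2 was below its reference in Cy/+ at both ages (-0.05 at 7 days and -0.42 at 3 days).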

How the data were processed

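Kidney RNA was measured on 6 arrays with 2 colours. Per the file headers, signals were read with Agilent Feature Extraction 9.5.1.1 and probes placed on rn3; product and version differ from those in the series text. The spot signals and backgrounds are deposited intensity values without normalization, per the file headers. The deposited log10 ratio is the software's processed Cy5 over Cy3, which the authors' series table repeats.

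Signals were corrected with normexp (offset 50), normalized by loess within arrays, and by Aquantile for separate channels, in limma 3.58.1 under R 4.3.3. Control and outlier-flagged spots were left out. Of 41012 probes, 28287 were kept, those that 2 or more of the 4 mutant arrays measured well above background in Cy5 or Cy3 and that had a value on all 6. Probes were named through RefSeq (10735 by accession, 5577 by symbol, 3730 by synonym). A gene outside the members is represented by its brightest probe.

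Log2 values were fitted with lmFit and eBayes, with 2 residual degrees of freedom for age and 1 for the fits on the 4 mutant arrays. The age fit treated channels of the same array as independent and gave the reference means the weight of single hybridisations. On simulated data the fits returned the simulated differences. With 1 residual degree of freedom, simulated for Cy/Cy minus Cy/+, the number of genes recovered depended on the spread assumed. With each probe's raw residual SD, 0% of log2 changes of 1 or 2 were called, against 99.0% to 100% with the other spreads. False calls could exceed the nominal share. Adjusted p-values of those fits are thus open to being too small, and a lack of calls does not exclude large differences.

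Genes named are the members, other peroxisome genes passing a test, the 10 nearest to Hao2, and 3 or fewer markers per list. Ehhadh, Pex11a and Hao1 were named after their values were seen. The members and lists were chosen with earlier results of these data known. Alternatives were the software's processed signals, median centring, no filter, no normalization between arrays, other terms, and each array or pool left out. The reference was also taken from mutant arrays only.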

Additional observations from a re-analysis of the deposited data

Results flagged for a closer look

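The mutant ratios of 2 other peroxisome genes had opposite signs at the 2 ages. Ehhadh, an enzyme of peroxisomal beta-oxidation, had log2 ratios to the reference of 0.33 in Cy/Cy and 0.10 in Cy/+ at 7 days, and of -0.26 in Cy/Cy and -1.01 in Cy/+ at 3 days, a mean difference of 0.85 between ages. Pex11a, which drives peroxisome division, had 0.52 in Cy/Cy and 0.69 in Cy/+ at 7 days, and -0.22 in Cy/Cy and -0.32 in Cy/+ at 3 days, a mean difference of 0.87. These genes were picked because every array of an age lay on 1 side of the reference and the ages differed by at least 0.8. Neither gene had a higher mutant level at 7 days than at 3 days. Ehhadh's log2 level at 7 and 3 days was 10.35 and 11.14 in Cy/Cy, 10.13 and 10.19 in Cy/+, and 9.90 and 11.18 in the reference. For Pex11a these were 10.63 and 10.89 in Cy/Cy, 10.78 and 10.79 in Cy/+, and 10.01 and 11.07 in the reference. The difference in mutant ratio between ages, by whose size both were picked, missed the threshold in limma (adjusted p = 0.112 for Ehhadh and 0.0693 for Pex11a). Above the reference on both arrays of 7 days and below it on both of 3 days were 12.2% of 74 peroxisome genes, 14.3% of 14 proximal tubule markers and 4.90% of 11676 named genes. The reverse held for 2 of the 74 genes, 0 of the 14 markers and 478 of the 11676. These counts use the signs alone, without the difference of 0.8, and nothing is read from them.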

How the results depend on the processing

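The members' tests stayed on the same side of the threshold under the alternatives run, except where stated. Calls between ages, 2879 as reported, numbered 1890 with the software's processed signals, 8885 (2008 of them higher at 7 days, against 1570 of 2879) with no normalization between arrays, 73 without the reference pool, 4669 without Cy/+ and 135 without Cy/Cy, or 73 to 4669 over single pools left out. Calls between Cy/Cy and Cy/+, 5 as reported, numbered 0 with processed signals, with all 6 arrays and with no age term, 268 with median centring, 3 with no filter, and 0 to 146 with single arrays left out. Calls on the mutant ratio between ages, 32 as reported, numbered 4 with processed signals, 461 with median centring, and 0 to 172 with single arrays left out. There the Hao2 difference was 0.69 with median centring and passed, on ratios that had helped to choose Hao2. Leaving out single arrays moved Cy/Cy minus Cy/+ for Hao2 between -0.51 and 0.14, turning its sign without 3-day Cy/Cy (0.05) and without 7-day Cy/+ (0.14). In that comparison, none of it called, single arrays left out gave -0.101 to 0.0987 for Dao, -0.203 to 0.179 for Cat, -0.0420 to 0.172 for Acox2 and -0.0311 to 0.122 for Acox3. The sign also turned there for Dao with processed signals (0.00098) and for Acox3 with median centring (-0.00329). For Acox3 it turned in the mutant ratio between ages with median centring (-0.0662). With no normalization between arrays it turned between ages for Dao (-0.18) and Acox3 (0.0882), while Cat (-0.44) and Acox2 (-0.31) passed the threshold. Over all alternatives the Hao2 difference between ages ran from 0.19, with no normalization between arrays, to 0.58, without the reference, at adjusted p of 0.0861 to 0.304 in limma. Median centring put Hao2 over its reference at 1.28 in Cy/Cy and 1.62 in Cy/+, or 1.08 and 1.38 relative to the median of all probes, which it raised by 0.17 to 0.29 on mutant arrays. Against the arrays labelled +/+ Hao2 was higher by 6.66 in Cy/Cy and 6.84 in Cy/+, by 7.04 and 7.24 with the software's log ratio, and by 6.92 and 7.25 with median centring. The cause of these shifts was not tested. Signals of Acox3, Pipox and Uox at or near background limit what their mutant values can show.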
